A study of Homo sapiens with 6 samples.

Results

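Solute carriers are membrane proteins that move ions, metals, nutrients, nucleotide sugars and drugs across the plasma membrane and the membranes of organelles. Their genes are numbered by family, so that SLC30 genes encode zinc exporters. Many SLC35 genes encode carriers that bring nucleotide sugars into the Golgi apparatus and the endoplasmic reticulum for glycosylation. In breast cancer cells they are best known for the supply of amino acids and glucose, the export of lactate and the control of pH. The RNAs described here are those on the authors' list of PD-L1 binding RNAs whose gene symbol begins with SLC, the SLCO genes included and the mitochondrial carriers of the SLC25 family left out. They number 52 of 3152 listed RNAs and belong to 27 of the 50 families that have a protein-coding gene in GENCODE release 29.

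RNA was precipitated from MDA-MB-231, a human triple-negative breast cancer cell line, with an antibody against the membrane protein PD-L1 (3 libraries, PD-L1 repeats 1 to 3) or with its IgG isotype, a control for RNA held without specificity (3 libraries, IgG repeats 1 to 3). The labels name no treatment or genetic change in either group, and cells of both were fixed with formaldehyde and sonicated. Nothing in the labels says whether the repeats were separate cultures, so p-values measure the spread between these libraries, which may be technical. Each value is a score, the sum over the peaks assigned to a gene in 1 library, and is not divided by length. An order of scores between genes is therefore not an order of RNA amounts, and more of an RNA in the cells cannot be told apart from a larger bound share of it, since no input library was used here.

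The authors chose the listed RNAs for scores at least 5-fold higher with PD-L1 in these same libraries, which set the direction of every difference in advance. Of all listed RNAs, 97.7% passed as higher with PD-L1 (limma, Benjamini-Hochberg adjustment over 3152 RNAs). The groups did not overlap in 95.9%, and 31.7% had no score in any of the 3 IgG libraries. For RNAs without an IgG score the 3 zeros show no spread, which lowers their SE and p-value. The size of their difference rests on the PD-L1 scores and on the constant added before taking logarithms. Scores summed over the listed RNAs ran from 123921 (PD-L1 repeat 3) to 217732 in the PD-L1 libraries and from 8353 (IgG repeat 1) to 19288 in the IgG libraries, and the sequencing depth behind them is unknown. Of the markers looked up, 3 of 10 genes of mesenchymal breast cancer lines, 1 of 9 epithelial genes (CLDN4), 1 of 4 neuronal genes (GAD1), 0 of 6 immune genes and 0 of 4 red cell genes were listed. Absence from a list selected in this way does not show that a marker is absent from the cells.

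All 52 solute carrier RNAs passed as higher with PD-L1 and 0 as lower, and 51 had no overlap between the groups. Beside the 97.7% and 95.9% of the whole list these counts say nothing particular about the carriers. Their median difference was 3.44 on the log2(score + 1) scale (quartiles 2.89 and 4.52), against 3.42 (2.82 and 4.23) for all listed RNAs. With scores of 0 set to the smallest score of the table, these medians were 3.14 and 3.05. Mean PD-L1 scores ran from 5.203 for SLC1A3 to 398 for SLC20A1, with a median of 30.5 against 31.2 over the list. The carriers held 1.25% to 1.33% of the summed score in the PD-L1 libraries and 1.19% to 1.40% in the IgG libraries.

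**Figure D1:**
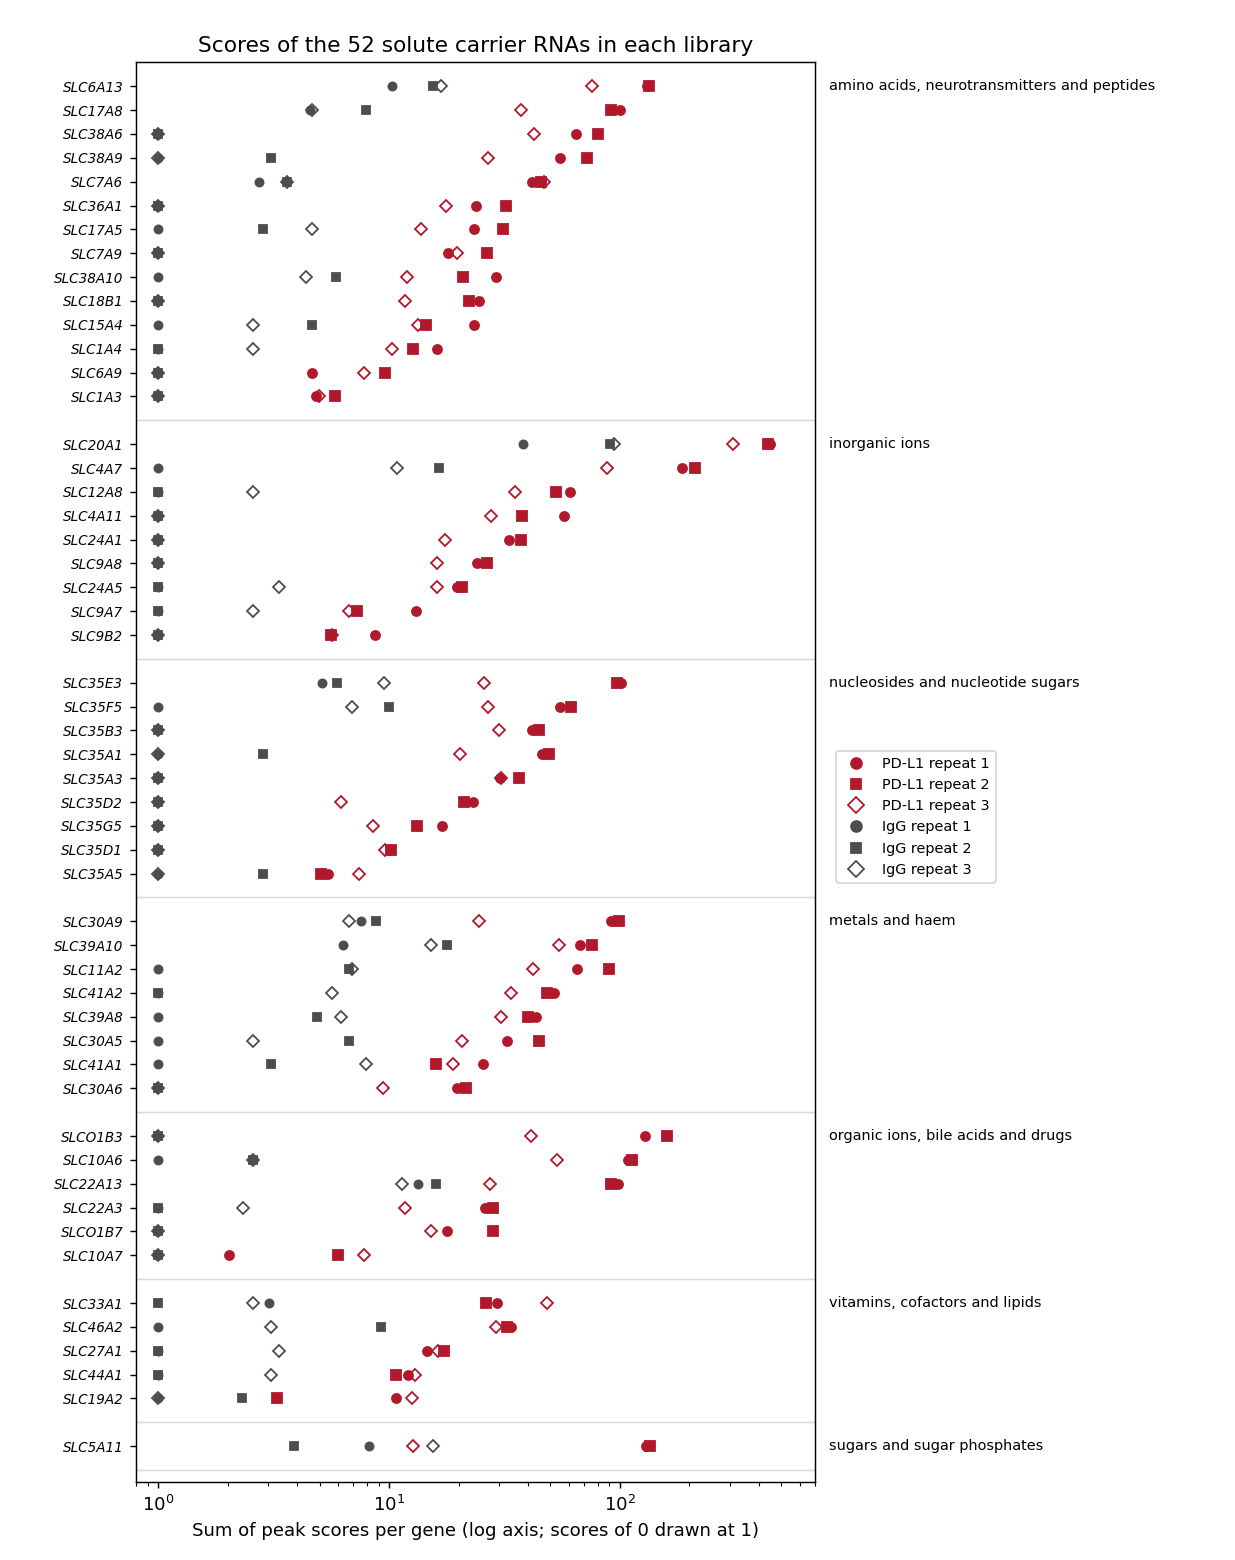
Sum of peak scores (log axis, scores of 0 drawn at 1) of each of the 52 solute carrier RNAs in the 3 PD-L1 libraries (red) and the 3 IgG libraries (grey), by class of substrate and in order of mean PD-L1 score. Red points lie to the right of all grey points in 51 lines, SLC5A11 is the line in which they overlap, and 19 lines have every grey point at 0.

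The size and, for some carriers, the sign of the difference depended on scaling. When the scores of every library were rescaled to an equal total, the median of all listed RNAs went from 3.42 to 1.76. That of the carriers went from 3.44 to 1.94. These totals cover only the listed RNAs, which were selected for higher PD-L1 scores, so equal totals lower the differences by construction. A rescaled value below 0 is relative to the listed RNAs as a whole and does not show a higher score with IgG. With rescaled libraries 19 carriers passed as higher and 2, SLC20A1 and SLC39A10, as lower. Over the 3152 RNAs these counts were 990 and 60, and 7 carriers lay below 0. All 19 were carriers with no score in any IgG library, and their IgG scores of 0 stay at 0 under any rescaling. The shares of such RNAs among the 990, and of listed RNAs below 0, were not counted. These counts are therefore not read as a trait of the carriers. Differences given from here on use the scores as deposited.

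Carriers of inorganic ions, which serve the pH, volume, calcium and phosphate balance of cells, had 9 members and a class median of 4.51. SLC20A1, a sodium-phosphate cotransporter and retrovirus receptor, scored 448.5, 435.9 and 308.8 in the PD-L1 libraries against 38.06, 90.83 and 93.9 in the IgG libraries. The groups did not overlap, but each IgG score exceeded the median PD-L1 score of the carriers, which was 19.3 to 32.2 by library. Its ratio of group means was 5.36, close to the limit of the authors' selection, and its log2 difference 2.49 ± 0.45 (SE; limma adjusted p = 0.00241). With rescaled libraries the difference was -1.10 (limma adjusted p = 0.0172).

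The sodium bicarbonate cotransporter SLC4A7 scored 185.2, 212 and 88.2 against 0, 16.45 and 10.81. Every PD-L1 library exceeded every IgG library, and the difference was 4.69 ± 1.13 (SE; limma adjusted p = 0.00751), or 3.41 without IgG repeat 1, where it had no score. The related SLC4A11, known from the corneal endothelium, scored 57.33, 37.71 and 27.61 and had no IgG score (5.33 ± 0.35, SE; limma adjusted p = 7.35e-05). SLC12A8, of the cation-chloride cotransporter family, scored 60.51, 52.83 and 35.1 against 0, 0 and 2.57. Its ratio of means, 57.8, was the highest among the 33 carriers with any IgG score.

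Exchangers completed the ion class. SLC24A1, the sodium, potassium and calcium exchanger of rod photoreceptors, scored 33.1, 37.37 and 17.53 with no IgG score. SLC24A5, an exchanger of pigment granules, scored 19.75, 20.71 and 16.1 against 0, 0 and 3.34. In neither did the groups overlap. Among sodium/proton exchangers, SLC9A8 of the Golgi scored 24.02, 26.49 and 16.07 and SLC9B2 scored 8.68, 5.62 and 5.67, both without an IgG score. SLC9A7 of the trans-Golgi network scored 13.12, 7.26 and 6.73 against 0, 0 and 2.57. PD-L1 and IgG scores did not overlap for any of these 3 exchangers.

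Carriers of amino acids, neurotransmitters and peptides were the largest class, with 14 members and a median difference of 3.30. SLC6A13, which takes up the transmitter GABA, scored 131.34, 133.67 and 76 against 10.27, 15.43 and 16.72, a difference of 2.90 ± 0.37 (SE; limma adjusted p = 0.000652). SLC17A8, a vesicular glutamate transporter, scored 99.72, 91.64 and 37.2 against 4.53, 7.98 and 4.63, a difference of 3.44 ± 0.48 (SE; limma adjusted p = 0.000917). Both had a score in all 3 IgG libraries and no overlap between groups. With rescaled libraries they stood at -0.61 and 0.05 and did not pass (limma adjusted p = 0.1602 and 0.927).

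The SLC38 family of neutral amino acid carriers had 3 of 11 annotated genes listed. SLC38A6 scored 64.36, 80.32 and 42.51 with no IgG score, and its difference of 5.94 ± 0.33 (SE; limma adjusted p = 5.76e-05) was among the larger ones of the carriers. SLC38A9, a lysosomal protein that senses arginine for the growth kinase mTORC1, scored 55.09, 71.66 and 26.8 against 0, 3.09 and 0. SLC38A10 scored 29.07, 20.86 and 12 against 0, 5.91 and 4.37. The family thus spanned the whole range of its class, from 2.62 to 5.94. SLC38A10 no longer passed without PD-L1 repeat 1 or PD-L1 repeat 2.

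Light subunits of amino acid exchangers were represented by SLC7A6 and SLC7A9. SLC7A6, which exchanges cationic and neutral amino acids, scored 41.4, 45.6 and 47.1 against 2.72, 3.6 and 3.6, and the SE of its difference, 3.41 ± 0.27 (limma adjusted p = 0.000115), was the smallest among the 33 carriers with any IgG score. SLC7A9, the kidney cystine carrier affected in cystinuria, scored 17.96, 26.66 and 19.65 with no IgG score. PD-L1 repeat 3 was the highest repeat for SLC7A6 and lay between the others for SLC7A9.

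Lysosomal and vesicular carriers made up much of the rest of the class. SLC36A1, which exports amino acids from lysosomes with protons, had a mean PD-L1 score of 24.5 ± 7.25 (SD, n = 3), and the vesicular polyamine carrier SLC18B1 19.5 ± 6.86, both with no IgG score. The lysosomal sialic acid exporter SLC17A5 (22.7 ± 8.71 against 2.49 ± 2.33) and the lysosomal peptide and histidine carrier SLC15A4 (17.01 ± 5.41 against 2.400 ± 2.32) had a score in 2 of 3 IgG libraries. The lowest PD-L1 scores of the class belonged to 3 carriers of the plasma membrane. SLC1A4, for neutral amino acids, scored 16.15, 12.7 and 10.27 against 0, 0 and 2.57, the glycine carrier SLC6A9 4.64, 9.61 and 7.79, and the glutamate carrier SLC1A3 4.84, 5.81 and 4.96, the last pair with no IgG score.

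The SLC35 family, which alone filled the class of nucleoside and nucleotide sugar carriers, was the most numerous, with 9 of 31 annotated genes listed. The class goes by family number, so it also holds the PAPS carrier SLC35B3 and members whose substrates are not settled. Over all solute carriers 15.4% of 338 annotated genes were listed, and over all protein-coding genes 15.5% of 19907. Of the 9, 5 had no score in any IgG library, and the median difference was 3.75. SLC35B3, which carries the sulphate donor PAPS into the Golgi, scored 41.54, 44.48 and 29.9. SLC35A3, a carrier of UDP-N-acetylglucosamine, scored 30.32, 36.48 and 30.4. Neither had an IgG score, and their differences were 5.29 ± 0.29 and 5.06 ± 0.26 (SE; limma adjusted p = 5.44e-05 and 5.44e-05). The CMP-sialic acid carrier SLC35A1 scored 46.02, 49.11 and 20.34 against 0, 2.83 and 0.

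The highest scores in the family belonged to SLC35E3 and SLC35F5, whose substrates are not settled. SLC35E3 scored 101.12, 96.61 and 25.86 against 5.14, 5.92 and 9.52, a difference of 3.08 ± 0.60 (SE; limma adjusted p = 0.00342) that stood at -0.35 with rescaled libraries (limma adjusted p = 0.603). SLC35F5 scored 54.93, 61.42 and 26.7 against 0, 10.03 and 6.94, a difference of 3.37 ± 0.97 (SE; limma adjusted p = 0.0145), which did not pass without PD-L1 repeat 1 or PD-L1 repeat 2. In both, PD-L1 repeat 3 was the lowest repeat. The nucleotide sugar carriers SLC35D1 (9.94 ± 0.3305) and SLC35D2 (16.8 ± 9.19) and the single-exon gene SLC35G5 (12.9 ± 4.24) had no IgG score. SLC35A5 scored 5.45, 5.08 and 7.44 against 0, 2.83 and 0, and its difference of 2.14 ± 0.60 (SE; limma adjusted p = 0.0129) did not pass without PD-L1 repeat 3.

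**Figure D2:**
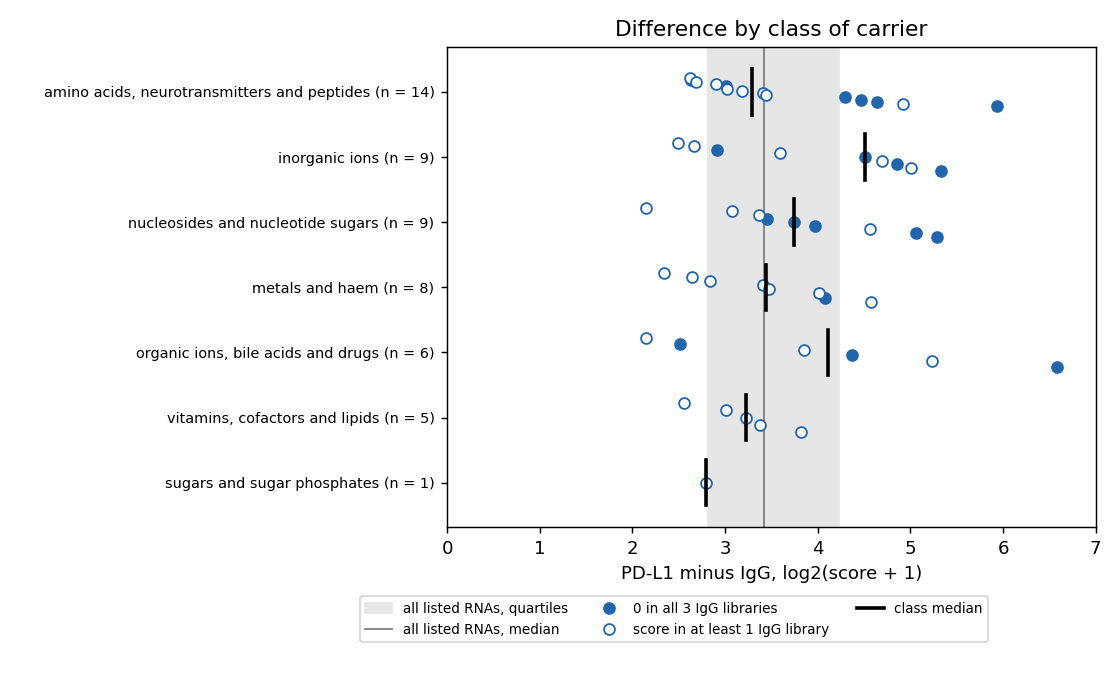
Difference between PD-L1 and IgG (log2(score + 1) scale) of each carrier by class, with class medians (black bars), over the quartiles (grey band) and median (grey line) of all 3152 listed RNAs. Classes go by family number, and class medians run from 2.79 to 4.51. Filled points are the carriers with no score in any IgG library. They number 5 of 9 in the nucleotide sugar class and 0 of 5 in the vitamin, cofactor and lipid class. With libraries rescaled to equal totals over these selected RNAs, 7 of the 52 differences lie below 0. The share of the list that does was not counted.

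Metal carriers had 8 members with a median of 3.44, and 1 of them had no score in any IgG library. The zinc exporters of SLC30 had 3 of 10 annotated genes listed. SLC30A9, a zinc carrier of mitochondria, scored 91.03, 99.3 and 24.5 against 7.56, 8.74 and 6.69, a difference of 2.84 ± 0.58 (SE; limma adjusted p = 0.00411) that stood at -0.61 with rescaled libraries (limma adjusted p = 0.431). SLC30A5 scored 32.49, 44.62 and 20.7 against 0, 6.68 and 2.57. SLC30A6, its partner in a complex that loads zinc into the secretory pathway, scored 19.59, 21.59 and 9.38 with no IgG score. PD-L1 repeat 3 was the lowest repeat in all 3.

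Zinc importers of SLC39 had 2 of 14 genes listed. SLC39A10 scored 67, 76.02 and 54.43 against 6.34, 17.75 and 15.18, and its ratio of means, 5.03, was the smallest among the carriers and the nearest to the limit of the authors' selection. Its difference was 2.34 ± 0.44 (SE; limma adjusted p = 0.00287), and -1.15 with rescaled libraries (limma adjusted p = 0.0199). SLC39A8, which also takes up manganese, scored 43.4, 39.92 and 30.5 against 0, 4.88 and 6.17. The iron importer SLC11A2 scored 65.17, 89.21 and 41.8 against 0, 6.68 and 6.94. Of the 3 annotated genes of the magnesium carrier family SLC41, 2 were listed. SLC41A2 had a mean of 44.5 ± 9.53 against 1.89 ± 3.27 (SD, n = 3) and SLC41A1 of 20.1 ± 4.86 against 3.69 ± 4.02, and SLC41A1 did not pass when any 1 PD-L1 repeat was left out.

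Carriers of organic ions, bile acids and drugs had 6 members, a median of 4.11 and a range from 2.15 to 6.58. SLCO1B3, which takes bile acids and drugs up into hepatocytes, scored 128.47, 160.14 and 41.3 with no IgG score. Its difference of 6.58 ± 0.55 (SE; limma adjusted p = 0.000135) was the largest of the 52 carriers and ranked 24 of 3152. The size of this difference depends on the constant added to the scores, and it was 9.89 with 0.1 and 3.41 with 10. The neighbouring gene SLCO1B7 scored 17.76, 28.12 and 15.23, also with no IgG score. Read-through transcripts join both genes, and 67.4% of the 50-base stretches of the SLCO1B3 transcript and 90.7% of those of SLCO1B7 also occur in transcripts annotated to another gene. How peaks were divided between them is uncertain.

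SLC10A6, which takes up steroid sulphates, scored 107.81, 113.02 and 53.36 against 0, 2.57 and 2.57, a difference of 5.23 ± 0.63 (SE; limma adjusted p = 0.000501). SLC10A7 of the same family stood near the lowest scores, at 2.02, 5.99 and 7.79 with no IgG score. SLC22A13, a kidney carrier of urate and nicotinate, scored 98.07, 91.57 and 27.4 against 13.3, 15.94 and 11.32, with a ratio of means of 5.35. Its difference of 2.15 ± 0.55 (SE; limma adjusted p = 0.00946) stood at -1.36 with rescaled libraries (limma adjusted p = 0.105). The organic cation carrier SLC22A3 scored 26.04, 28.29 and 11.69 against 0, 0 and 2.32. None of the 6 had overlapping groups.

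Vitamin, cofactor and lipid carriers had 5 members and a median of 3.23, and each had a score in at least 1 IgG library. SLC33A1, which carries acetyl-CoA into the endoplasmic reticulum, scored 29.27, 26.3 and 48.12 against 3.02, 0 and 2.57. The thiamine carrier SLC19A2 scored 10.7, 3.26 and 12.6 against 0, 2.31 and 0, and it did not pass without PD-L1 repeat 1 or PD-L1 repeat 3. PD-L1 repeat 3 was the highest repeat in both. SLC46A2, known from the thymus, scored 33.71, 32.29 and 29.05 against 0, 9.26 and 3.09. The fatty acid carrier SLC27A1 (16.02 ± 1.38 against 1.11 ± 1.93; SD, n = 3) and the choline carrier SLC44A1 (11.9 ± 1.12 against 1.03 ± 1.78) varied little between the PD-L1 libraries.

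Of the sugar carriers, SLC5A11, a sodium-coupled carrier of myo-inositol, was listed. It scored 129.18, 135.42 and 12.7 in the PD-L1 libraries, and its IgG scores were 8.16, 3.86 and 15.43. PD-L1 repeat 3 lay below IgG repeat 3, an overlap that none of the other 51 carriers showed. The difference of 2.79 ± 1.01 (SE; limma adjusted p = 0.0341) did not pass without PD-L1 repeat 1, PD-L1 repeat 2, IgG repeat 1 or IgG repeat 2, was 3.89 without PD-L1 repeat 3, and stood at -0.64 with rescaled libraries (limma adjusted p = 0.642).

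Families differed in how many of their genes were listed. The glucose carriers of SLC2 had 0 of 15 annotated genes on the list, the monocarboxylate carriers of SLC16, which include those for lactate, 0 of 14, and the anion exchangers of SLC26 0 of 11. In all, 23 families of 1 to 15 genes had none, 12 families had 1 and 4 families had 3 or more. By class, 1 of 36 genes of sugar carriers, 0 of 19 of carboxylate carriers and 0 of 2 of urea carriers were listed, beside 9 of 38 for nucleosides and nucleotide sugars and 8 of 34 for metals. The annotated totals go by symbol and so hold a few genes that are no carriers, such as the SLC9A3R regulators. RNAs outside the list were not analysed here, so the part that expression in this line plays in these shares was not tested.

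**Figure D3:**
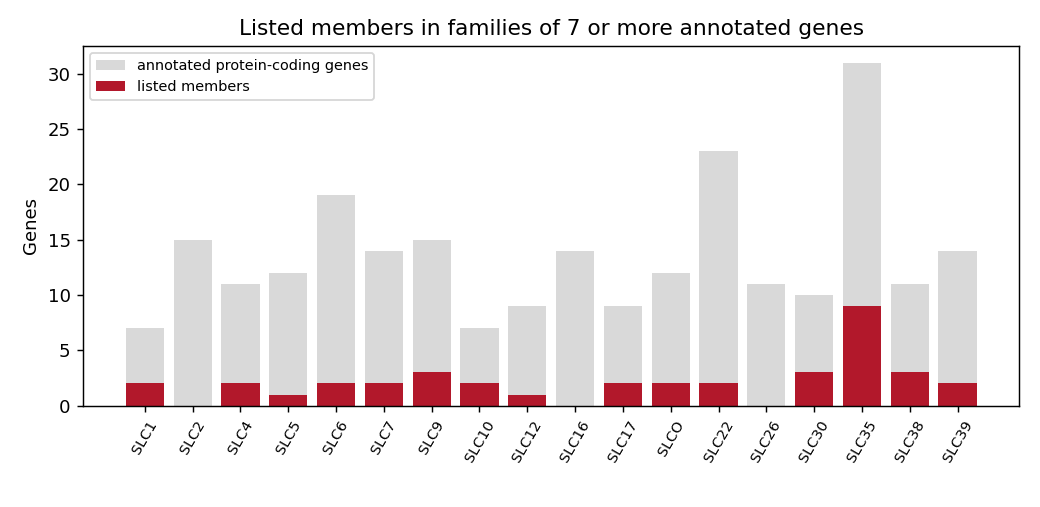
Annotated protein-coding genes (grey bars) and listed members (red bars) of the solute carrier families with 7 or more annotated genes (number of genes on the vertical axis). SLC35 has 9 of 31 genes listed, and SLC2, SLC16 and SLC26 have 0 of 15, 0 of 14 and 0 of 11.

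No score in any of the 3 IgG libraries was found for 19 of the 52 carriers (36.5%), beside 31.7% of the list. Of the others, 12 had a score in 1 IgG library, 12 in 2 and 9 in all 3. IgG repeat 1, the library with the lowest sum, lacked a score for 42 carriers, repeat 2 for 28 and repeat 3 for 23. A 0 stands for the lack of a scored peak and does not exclude reads, and the smallest scores above 0 in the IgG libraries were 2.06 to 2.42. By class, the carriers without an IgG score were 5 of 9 for nucleotide sugars, 3 of 6 for organic ions, 4 of 9 for inorganic ions, 6 of 14 for amino acids, 1 of 8 for metals and 0 of 5 for vitamins, cofactors and lipids.

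This share fell as the PD-L1 score rose. Part of that fall is built in, since listed RNAs had to be at least 5-fold higher with PD-L1. As IgG scores above 0 began at 2.06, an RNA with a low PD-L1 score could be listed only with few or no IgG scores. Carriers without an IgG score had a median mean PD-L1 score of 20.4 and the others 38.5, while the whole list had 14.8 and 45.9. In the lowest tertile of the list by mean PD-L1 score (up to 19.4) 8 of 16 carriers had no IgG score, in the middle tertile 9 of 23, and in the highest (above 52.04) 2 of 13. Over all listed RNAs the shares in these bands were 58.6%, 28.5% and 8.09%. SLCO1B3 and SLC38A6 were the pair in the highest band. The classes differed in PD-L1 score too, with medians from 16.0 for vitamins, cofactors and lipids to 47.2 for organic ions among classes of more than 1 member. Against the trend, the former had 0 of 5 carriers without an IgG score and the latter 3 of 6. Metals, with a median of 41.2, had 1 of 8. Differences between classes were not tested.

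PD-L1 repeat 3 lay below both other PD-L1 repeats for 39 of the 52 carriers, beside 63.8% of the list. It lay above both for 6, beside 754 of the 3152 listed RNAs. The ratio of repeat 3 to the mean of repeats 1 and 2 had a median of 0.634 among the carriers and 0.715 over the list. It was lowest for SLC5A11 (0.09599), SLC30A9 (0.257) and SLC35E3 (0.262). It was highest for SLC10A7 (1.95), SLC19A2 (1.81) and SLC33A1 (1.73). Repeat 3 was the highest for 3 of 5 vitamin, cofactor and lipid carriers and for 0 of 9 inorganic ion and 0 of 8 metal carriers. These classes are small, and the differences between them were not tested. Over the 52 carriers, which share these libraries, Spearman's rho was 0.967 for repeat 1 against 2, 0.828 for 1 against 3 and 0.815 for 2 against 3. Repeat 3 also had the lowest summed score, and the part of depth in its values was not tested.

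**Figure D4:**
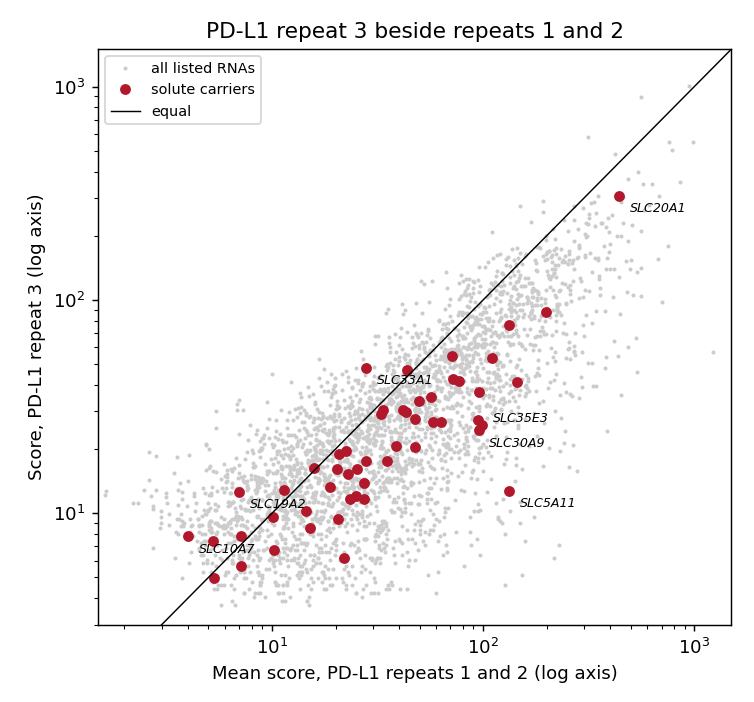
Score in PD-L1 repeat 3 against the mean of PD-L1 repeats 1 and 2 (log axes) for the 52 carriers (red) and all listed RNAs (grey), with the line of equal values. Most carriers lie below the line, SLC5A11 farthest with a ratio of 0.09599, while SLC10A7, SLC19A2 and SLC33A1 lie above it.

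Base composition, which took no part in the choice of members, differed between listed and other carrier genes as it did over all genes. The longest protein-coding transcript had a median GC content of 44.5% (quartiles 39.2% and 51.7%) for the 52 members and 52.1% (43.8% and 58.7%) for the 286 annotated solute carrier genes not listed. For all 3092 listed RNAs with an annotation it was 43.4%, and for the 16823 protein-coding genes not listed 50.8%. In 12 of the 14 families with at least 2 listed and 2 other genes the listed genes had the lower median, SLC6 and SLC9 being the exceptions. For SLC35 the medians were 41.6% for the 9 listed and 53.3% for the 22 other genes, and for SLC39 they were 41.2% for 2 and 52.9% for 12.

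Genes of listed carriers were also longer, with a median span of 51180.5 bases and 12 exons against 36574 bases and 11 exons for those not listed. In 10 of the 14 families the listed genes had the longer median span. Over all genes the contrast was larger, with 58733.5 bases and 12 exons for the listed RNAs against 22784 bases and 7 exons for protein-coding genes not listed. Among the 52 members, which share the same libraries, Spearman's rho of the log2 difference was -0.15 with GC content, 0.14 with gene span and 0.17 with exon number. Exon number had a rho of 0.210 with the mean PD-L1 score (0.382 over the list) and of -0.318 with the ratio of PD-L1 repeat 3 to the other repeats (-0.334 over the list). Expression of these genes in the line was not measured here, and its part in the contrast between listed and other genes was not tested.

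**Figure D5:**
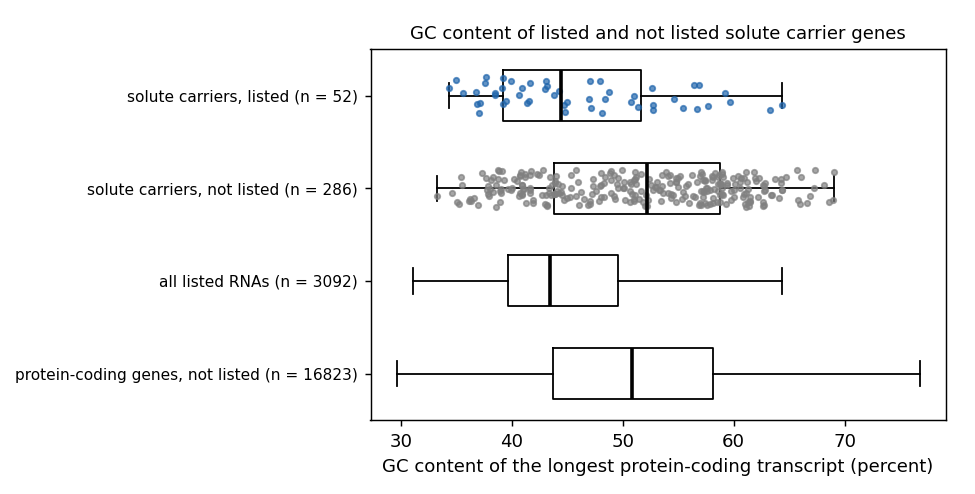
GC content (percent) of the longest protein-coding transcript of listed and not listed solute carrier genes (points), of all listed RNAs and of protein-coding genes not listed. Boxes give quartiles and median and whiskers the values within 1.5 box lengths, and the medians from top to bottom are 44.5%, 52.1%, 43.4% and 50.8%.

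For some members the gene of origin is uncertain. SLC9B2 overlaps BDH2 on the same strand, and BDH2 scored 244.37, 244.93 and 24.3 with PD-L1, above SLC9B2 in every PD-L1 library. SLC24A1 overlaps DENND4A (12.1, 10.5 and 18.1 with PD-L1), SLC46A2 overlaps SNX30 (11.31, 12.34 and 9.38 with PD-L1) and SLC35A5 overlaps ATG3 (34.52, 31.2 and 12.7 with PD-L1), each on the opposite strand, and whether peaks were assigned by strand is not stated. Besides the SLCO1B pair, more than 30% of the 50-base stretches also occurred in transcripts of another gene for SLC7A6 (57.1%), SLC35A1 (56.1%), SLC35D2 (51.4%), SLC46A2 (34.8%) and SLC35G5 (31.2%). For 36 of the 52 members less than 1% did.

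Values of other transporters on the list are given for comparison. Over the whole list 97.7% of RNAs passed as higher and 31.7% had no score in any IgG library. The mitochondrial carriers of SLC25, which move metabolites across the inner mitochondrial membrane, had 14 of 48 annotated genes listed, all higher with PD-L1, with a median difference of 3.796 and 7 without any IgG score. SLC25A27 scored 103.79, 136.9 and 81.1 against 0, 3.09 and 0, and the iron carrier SLC25A37 125.9, 97.4 and 45.5 against 8.47, 13.62 and 21.1. In neither did the groups overlap. ABC transporters, which are driven by ATP, had 7 of 45 genes listed, all higher, with a median of 3.29 and 1 without any IgG score. The exporter ABCC4 scored 105.35, 124.75 and 43.95 against 3.02, 5.66 and 2.57, with no overlap between the groups.

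P-type pumps had 9 of 40 genes listed, all higher, with a median of 3.44 and 3 without any IgG score. The calcium pump ATP2B1 scored 568.2, 584 and 264.3 against 79.49, 104.87 and 95.03, and the lipid flippase ATP11B 167.57, 184.81 and 66.88 against 8.47, 13.89 and 7.72. Proton pump subunits of the V-type ATPase had 3 of 24 listed, all higher, with a median of 3.61 and 0 without any IgG score. ATP6V0A4 (mean 58.2 ± 15.6, SD, n = 3) and ATP6V1C1 (51.6 ± 28.1) had the highest PD-L1 means. Carriers without an SLC symbol had 5 of 37 listed, all higher, with a median of 3.29 and 2 without any IgG score. Their highest PD-L1 means were those of PQLC3 (275 ± 140.1) and the melanosome protein OCA2 (179.5 ± 80.6).

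Partners of carriers and kinases that regulate them had 7 of 30 listed, with a median of 3.25. Of these, 6 passed as higher and 2 had no score in any IgG library. The ubiquitin ligase scaffold CUL3 scored 131.6, 126.41 and 22.84 against 0, 15.18 and 16.46, and STK39, a kinase of cation-chloride cotransporters, 61.54, 64.73 and 27.47 against 2.72, 5.14 and 9. The membrane skeleton adaptor ANK1, named after its values were seen, scored 48.25, 46.8 and 6.02 against 4.84, 0 and 13.64 and did not pass (2.53 ± 1.22, SE; limma adjusted p = 0.0841). The differences between these lists and the solute carriers were not tested. These directions, too, hold for the scores as deposited and were not examined list by list with rescaled libraries.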

How the data were processed

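RNA immunoprecipitation libraries, 3 with a PD-L1 antibody and 3 with IgG, were grouped by their titles. Per the submitters' processing notes, TopHat2 2.0.14, HOMER 4.8.3 and build hg19 were used, with no roles given. The deposited values are a score, per the file headers the sum of peak scores per gene in each library. How scores were scaled is not stated, and with read depth unknown no counting intervals could be computed. Per the series' design text, RNAs at least 5-fold higher with PD-L1 were kept by the authors.

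From these scores, log2(score + 1) was fitted over all 3152 RNAs with limma 3.58.1 in R 4.3.3, with Benjamini-Hochberg adjustment, a threshold of 0.05 and no filter on low values, so that all 52 members entered. The fit was tested on simulated scores in which few RNAs differed between groups and all libraries had the same spread. That setting differs from these selected scores with their IgG zeros, so the fit was not checked for them. Carriers were classed by family number. The members, classes, lists and rule for named RNAs were chosen with earlier results of these data known. That rule takes the 10 highest PD-L1 scores, the 10 largest differences, 2 leaders of each class, overlaps, the 3 smallest ratios and extremes of PD-L1 repeat 3, and the remaining members are given as well. GENCODE release 29, on another build than hg19, served for family sizes, lengths, GC content, overlaps and shared sequence, with all 52 members and 3092 listed RNAs matched by symbol, and no coordinates are given. A further 3 listed genes now carry an SLC symbol but stand under older ones and were not counted as members. Alternatives were other pseudocounts, zeros at the smallest score, rescaled libraries, a minimum score, an intensity trend, a replicate block, numbered families only and each library left out.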

Additional observations from a re-analysis of the deposited data

How the results depend on the processing

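The scores set the limits here, since depth, peak number and the authors' scaling are unknown. With a pseudocount of 0.1 the median of the carriers was 5.68, and the class medians were 5.58 for amino acids, 6.05 for inorganic ions, 6.86 for nucleotide sugars, 6.38 for organic ions and 5.15 for vitamins, cofactors and lipids. With a pseudocount of 10 they were 1.68, and 1.59, 1.94, 1.88, 1.62 and 1.24 in the same order. With zeros at the smallest score nucleotide sugars had 3.16, and with numbered families only (50 carriers, without the SLCO pair) organic ions had 3.18. With rescaled libraries 19 carriers were higher, the median was 1.94, and the class medians were 1.86, 2.33, 2.99, 2.73 and 1.28 in that order, 1.20 for metals and -0.64 for sugars. There SLC35E3 (-0.35), SLC5A11 (-0.64), SLC30A9 (-0.61), SLC6A13 (-0.61), SLC20A1 (-1.10), SLC22A13 (-1.36) and SLC39A10 (-1.15) changed sign, and 26 others no longer passed. Equal totals over RNAs selected for higher PD-L1 scores lower the differences by construction. The carriers' median minus that of the list, 0.026, ran from -0.00525 with a pseudocount of 10 to 0.285 with a pseudocount of 0.1 among the alternatives that kept every library. The order of the class medians changed too. Inorganic ions stood highest with the scores as deposited but not with a pseudocount of 0.1, rescaled libraries or without IgG repeat 1. With a pseudocount of 10 only the sugar class, which is the 1 gene SLC5A11 (2.06), stood above them. The cause of these shifts was not tested.

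With each library left out in turn, 47 to 52 carriers were higher, beside 2730 to 3032 of the 3152 listed RNAs. The median was 3.14 to 3.79, and its difference from the list -0.0395 (without IgG repeat 1) to 0.198. The share without an IgG score was 36.5% to 51.9%. It cannot fall when an IgG library is left out, since fewer zeros are then needed. The share of the list in these settings is not given, so this range is not to be set beside the list's share with every library. Class medians ran from 3.16 to 3.50 for amino acids, 3.41 to 4.71 for inorganic ions, 3.54 to 4.00 for nucleotide sugars, 2.73 to 3.96 for metals, 3.88 to 4.40 for organic ions, 2.67 to 3.69 for vitamins, cofactors and lipids and 2.23 to 3.89 for sugars. With a pseudocount of 0.1, 6 carriers no longer passed although their differences were larger (SLC35F5 4.55, SLC46A2 4.46), and the listed RNAs that passed went from 3078 to 2798. A replicate block left 52 carriers higher and the median at 3.44, and changed no carrier's call. No pairing by repeat number was seen, as same-numbered deviations had correlations of -0.121, 0.0709 and -0.0790. Not every library correlated best with its own number. The labels do not say whether same-numbered libraries were prepared together. Correlations over RNAs selected on these libraries cannot settle it, so pairing is unknown. Without the 6 members that overlap another listed gene or share the SLCO1B locus, an alternative chosen after seeing the data, 46 were higher, with a median of 3.44 and 32.6% without an IgG score.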
